A study of Mus musculus with 28 samples.

Results

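Gja1, Gjb6, Aqp4, Kcnj10 and Slc4a4 are genes through which astrocytes couple to one another and handle water, potassium and bicarbonate. They are a list of names, drawn up with earlier results of these data known, and all 5 were found among the 23453 genes of the exonic count table and among the 20422 genes of the intronic one. Both tables hold counts for the same 28 single cells of mouse cortex, whose RNA was amplified and sequenced. By the sample labels, 8 cells are astrocytes and 12 are neurons, all from primary culture, of genotype C57/BL6 and drawn up with a pipette, and 8 are interneurons of genotype C57/BL6/N taken from acute slices by patch clamp pipette. No label gives a treatment, and no label or method names the animal or culture of any one cell. For the cultured cells the labels' growth protocol speaks of a 3-month-old male mouse fixed by perfusion. The study's methods give such a mouse for brain sections, and describe dispersed mouse cultures made from embryos of both sexes. No age is given for the interneurons.

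The columns of the tables carry codes that match no label, so the type of cell in a column is unknown. Each value below is therefore that of 1 column, and no test, SD or p-value is given, since cells are not replicates of a condition. The columns are described in 3 sets of codes as they stand in the tables: the first set is BRP564 and BRP566 to BRP572 (8 columns), the second is the other 12 BRP codes, from BRP528 to BRP543, and the third is the 8 F codes. The sizes of these sets equal the labelled numbers of cells, but 2 of the sets have the same size, and no set is given a cell type here. The division was proposed with the sizes of the sets and their marker genes in view, so every difference between sets in astrocyte or neuronal genes, the 5 genes included, is a description of the sets and supports nothing about them. Preparation and sequencer differ in the labels between cultured cells and interneurons, so a difference between code sets cannot be told apart from one between preparations.

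Gja1 encodes connexin Cx43 and Gjb6 encodes connexin Cx30, the proteins of the gap junctions through which astrocytes pass ions and small molecules to each other. Aqp4 is the water channel of astrocyte endfeet, the processes that meet blood vessels. Kcnj10 encodes Kir4.1, the inwardly rectifying channel through which astrocytes, and also cells of the oligodendrocyte lineage, take up potassium released by active neurons. Slc4a4 encodes NBCe1, which moves sodium and bicarbonate together across the membrane and buffers pH. In the mouse brain Gja1 is expressed in astrocytes from early development, and Gjb6 follows after birth.

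Levels are given as CPM, a gene's exonic count scaled to the same exonic total (1000000) in every column. Exonic totals ranged from 12969692 to 19798892 in the first set, from 17483754 to 26770944 in the second and from 838343 to 14831505 in the F columns, so a value of 0 weighs least in the F columns, where 3 counts were worth 0.202 to 3.58 CPM. The log2(CPM + 1) values of columns F11 and F12 correlated at Pearson's r = 0.955 over genes, the highest of 378 pairs, and their chi-square per degree of freedom was the lowest, at 17.6, which is still more than sampling noise. The next highest r among F columns was 0.414, and the next lowest chi-square value of any pair was 219. By Spearman's rho over genes F11 and F12 reached 0.529, where the other 27 pairs of F columns had a median of 0.231. The highest of those 27 was 0.538, in a pair that held F11 or F12, and BRP571 with BRP572 reached 0.862. Neither F11 nor F12 held any of the 5 genes above 1.82 CPM. Fixed cell type markers describe the columns and, for the reason given, do not check the sets. The 12 astrocyte markers, all detected in each column of the first set, summed to 10279 to 22145 CPM there, to 378 to 4876 CPM in the second set and to 1.19 to 5897 CPM in the F columns. Vim was the highest of the 12 in every column of the first set, at 7231 to 13996 CPM. Slc1a2 went the other way, with a median of 192 CPM in the first set and 804 in the second. It was highest in F7, at 4350 CPM. The 10 neuronal markers summed to 397 to 1063 CPM in the first set, 6186 to 12029 CPM in the second and 2116 to 18894 CPM in the F columns. The 9 GABA neuron markers summed to 9.82 to 190, 0.538 to 3447 and 565 to 11886 CPM in the same order. The 10 oligodendrocyte lineage markers summed to 571 to 1315, 0.517 to 1315 and 0 to 3387 CPM, the last in F7. Microglial markers summed to at most 46.6 CPM in the BRP columns. In the F columns their sums had a median of 3.55 CPM and reached 2093 CPM in F16, from Csf1r alone. Endothelial, mural and fibroblast markers summed to at most 107 CPM in any column.

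**Figure D1:**
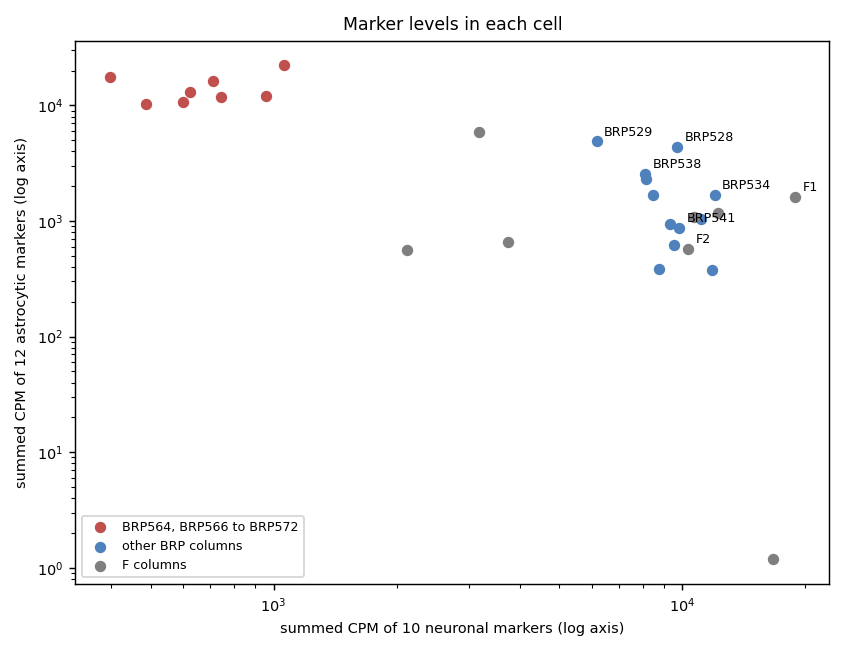
Summed CPM of 10 neuronal markers (horizontal) against summed CPM of 12 astrocyte markers (vertical), both on log axes, 1 point for each of the 28 columns, coloured by code set. The 8 columns of the first set lie at 10279 CPM or more of astrocyte markers and 1063 CPM or less of neuronal markers.

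On GRCm38, Gja1 lies at chr10:56377330-56402513 (plus strand) and Gjb6 at chr14:57123303-57133611 (minus strand). Kcnj10 lies at chr1:172341210-172374085 (plus strand) and Slc4a4 at chr5:88886818-89239653 (plus strand). The 150 bases before a RefSeq start of 4 of the 5 genes are printed 5′ to 3′ on the gene's strand, since these genes were detected together in some columns and apart in others. They lie on GRCm38.p6 at chr10:56377150-56377299 for Gja1, chr14:57133612-57133761 for Gjb6, chr1:172341060-172341209 for Kcnj10 and chr5:89027816-89027965 for Slc4a4, where the window belongs to a start inside the gene. Capitals mark matches to the CCAAT box or to the Sp1 box, GGGCGG, on either strand.
Gja1: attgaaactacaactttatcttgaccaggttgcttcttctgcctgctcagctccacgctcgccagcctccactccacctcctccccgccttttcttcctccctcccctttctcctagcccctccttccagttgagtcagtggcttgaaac
Gjb6: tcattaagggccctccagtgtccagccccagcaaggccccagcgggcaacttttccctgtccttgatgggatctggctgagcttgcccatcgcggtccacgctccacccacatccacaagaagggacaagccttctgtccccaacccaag
Kcnj10: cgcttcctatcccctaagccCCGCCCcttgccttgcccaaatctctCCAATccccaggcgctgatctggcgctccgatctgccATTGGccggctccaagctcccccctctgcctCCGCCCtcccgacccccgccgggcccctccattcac
Slc4a4: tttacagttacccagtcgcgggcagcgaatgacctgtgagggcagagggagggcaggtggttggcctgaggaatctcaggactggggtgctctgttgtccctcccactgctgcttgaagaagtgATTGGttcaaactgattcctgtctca

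Of the 4 motifs searched on both strands, the TATA box (TATAAA), the CCAAT box, the Sp1 box (GGGCGG) and a STAT site (TTCNNNGAA), the Kcnj10 window held the CCAAT box 2 times and the Sp1 box 2 times, the Slc4a4 window held the CCAAT box 1 time, and the windows of Gja1 and Gjb6 held none. A further Slc4a4 window, before a start near the 5′ end of the gene, overlaps an annotated exon and is not printed, and it held the Sp1 box 1 time. Over 32851 mouse promoters of the same length, the CCAAT box was present in 24.5%, the Sp1 box in 28.6%, the TATA box in 7.57% and the STAT site in 4.09%. The GC content was 68.7% for Kcnj10, 60.7% for Gjb6, 55.3% for Slc4a4 and 54.7% for Gja1, beside a median of 54% over all promoters. No motif of the 4 was thus present in all these windows, and such matches are descriptions of letters, not of bound factors.

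Among the connexins, Gja1 was present in every column of the first set and Gjb6 in none of them. Gja1 reached 775 CPM in BRP564, 313 in BRP567, 297 in BRP572, 227 in BRP569, 220 in BRP566, 190 in BRP570, 179 in BRP568 and 172 in BRP571. In the second set it was at 96.5 CPM in BRP529, 29.6 in BRP528 and 1.66 in BRP538, at 0.343 CPM or less in 4 further columns and at 0 in the other 5. The lowest column of the first set thus lay above the highest of the second. F2 held 183 CPM of Gja1 (1011 counts), within the range of the first set, while F1, F6 and F11 each held a single count and the other 4 F columns held none. Over all columns Gja1 had a count in 19 of 28.

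Gjb6 was found in the exons of 1 column only, BRP538, with 288 counts or 12.9 CPM (95% exact Poisson interval 11.5 to 14.5, which covers counting error only). In the 8 columns of the first set, where the other 4 genes were all detected, the same interval for 0 counts ended at 0.186 to 0.284 CPM. In the F columns this upper limit was 0.249 to 4.40 CPM. The intronic table added 1 Gjb6 count in BRP569, 2 in F11 and 2 in F12. BRP538 itself was low in the other members, with Gja1 at 1.66, Aqp4 at 0.941, Kcnj10 at 0.0896 and Slc4a4 at 0.0896 CPM. The column with the Gjb6 transcript was therefore not one of those with much Gja1, and the other 27 columns gave no exonic Gjb6 count.

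Aqp4, at chr18:15389496-15410982 (GRCm38, minus strand), separated the first set from every other column. It reached 2062 CPM in BRP564, 1415 in BRP568, 1346 in BRP571, 1185 in BRP570, 1076 in BRP566, 859 in BRP572, 760 in BRP567 and 652 in BRP569. In the second set the highest values were 418 CPM in BRP529, 142 in BRP528, 28.9 in BRP534 and 5.09 in BRP536, and the other 8 columns held 1.09 CPM or less. Of the F columns only F11 held any Aqp4, with 3 counts or 0.683 CPM. The 8 columns of the first set carried 94.0% of the CPM of Aqp4 summed over the 28 columns.

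Kcnj10 was likewise detected in every column of the first set. It stood at 735 CPM in BRP564, 722 in BRP571, 476 in BRP572, 471 in BRP567, 420 in BRP570, 403 in BRP569, 400 in BRP566 and 311 in BRP568. In the second set it stood at 305 CPM in BRP529, 96.5 in BRP528, 84.1 in BRP541, 35.2 in BRP534 and at 1.98 CPM or less in the other 8. The gap between the sets, 311 against 305 CPM, was small and closed when counts were scaled by edgeR's TMM factors (217 against 238) or by DESeq2 size factors (271 against 301). In the F columns Kcnj10 was at 1.73 CPM in F7 and 0.473 CPM in F24 and was not detected in the other 6.

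BRP541 parted Kcnj10 from the other members: it held 84.1 CPM of Kcnj10 (1478 counts) with 1 count of Gja1, 2 of Aqp4 and 0 of Slc4a4. The same column held Olig1 at 503 CPM, Pdgfra at 200, Olig2 at 122, Mbp at 107 and Cspg4 at 61.9, which are genes of the oligodendrocyte lineage and its progenitors. For the whole list, 8 of 10 oligodendrocyte lineage markers were detected there and summed to 1045 CPM, against 0.517 to 1315 CPM over the second set and 571 to 1315 CPM over the first. BRP541 also held 10 of 10 neuronal markers, at a larger sum of 9835 CPM. It held 2 of 9 GABA neuron markers, at 409 CPM, and 9 of 12 astrocyte markers, at 877 CPM. The part of any of these in the Kcnj10 value was not tested.

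Slc4a4 was detected in every column of the first set but had its highest values outside it. In the first set it stood at 267 CPM in BRP572, 258 in BRP570, 254 in BRP571, 245 in BRP564, 178 in BRP567, 160 in BRP569, 99.7 in BRP566 and 96.1 in BRP568. In the second set it reached 109 CPM in BRP529, 90.8 in BRP528 and 29.3 in BRP537, with 7.21 CPM or less in the other 9, so that the sets overlapped by CPM. With intronic counts added, its lowest value in the first set was 133 CPM, above its highest in the second, 105 CPM. The 2 highest values of all came from F columns, 1360 CPM in F2 (7531 counts) and 461 CPM in F1 (6838 counts), while the other 6 F columns held 5.67 CPM or less.

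F1 and F2 carried Slc4a4 without most of the other members. F1 held 1 count of Gja1 and 0 of Gjb6, Aqp4 and Kcnj10, and F2 held Gja1 at 183 CPM and none of the other 3. Of the 12 astrocyte markers, 9 were detected in F1 and summed to 1617 CPM: Ndrg2 at 709, Slc1a2 at 637, Aldoc at 205 and Glul at 65.2 CPM, Fgfr3 with 6 counts, Slc1a3, Sox9 and Vim with 2 each and Gfap with 1, while Aldh1l1, S100b and Apoe were at 0. In F2, 5 of 12 were detected and summed to 577 CPM: Glul at 322, Ndrg2 at 244, Slc1a2 at 6.14 and Aldoc at 5.24 CPM and Apoe with 2 counts, the other 7 being at 0. Both columns thus held some of the astrocyte markers at high levels and lacked others, and their part in the Slc4a4 values was not tested. Over the F columns that sum ran from 1.19 to 5897 CPM. Neuronal markers summed to 18894 CPM in F1 and 10346 CPM in F2, and GABA neuron markers to 11886 and 4235 CPM. The F columns thus held 50.4% of the summed CPM of Slc4a4 and the first set 42.9%, whereas the first set held 88.4% of Gja1 and 88.2% of Kcnj10. Without F2 these shares of Slc4a4 were 20.7% and 68.7%.

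**Figure D2:**
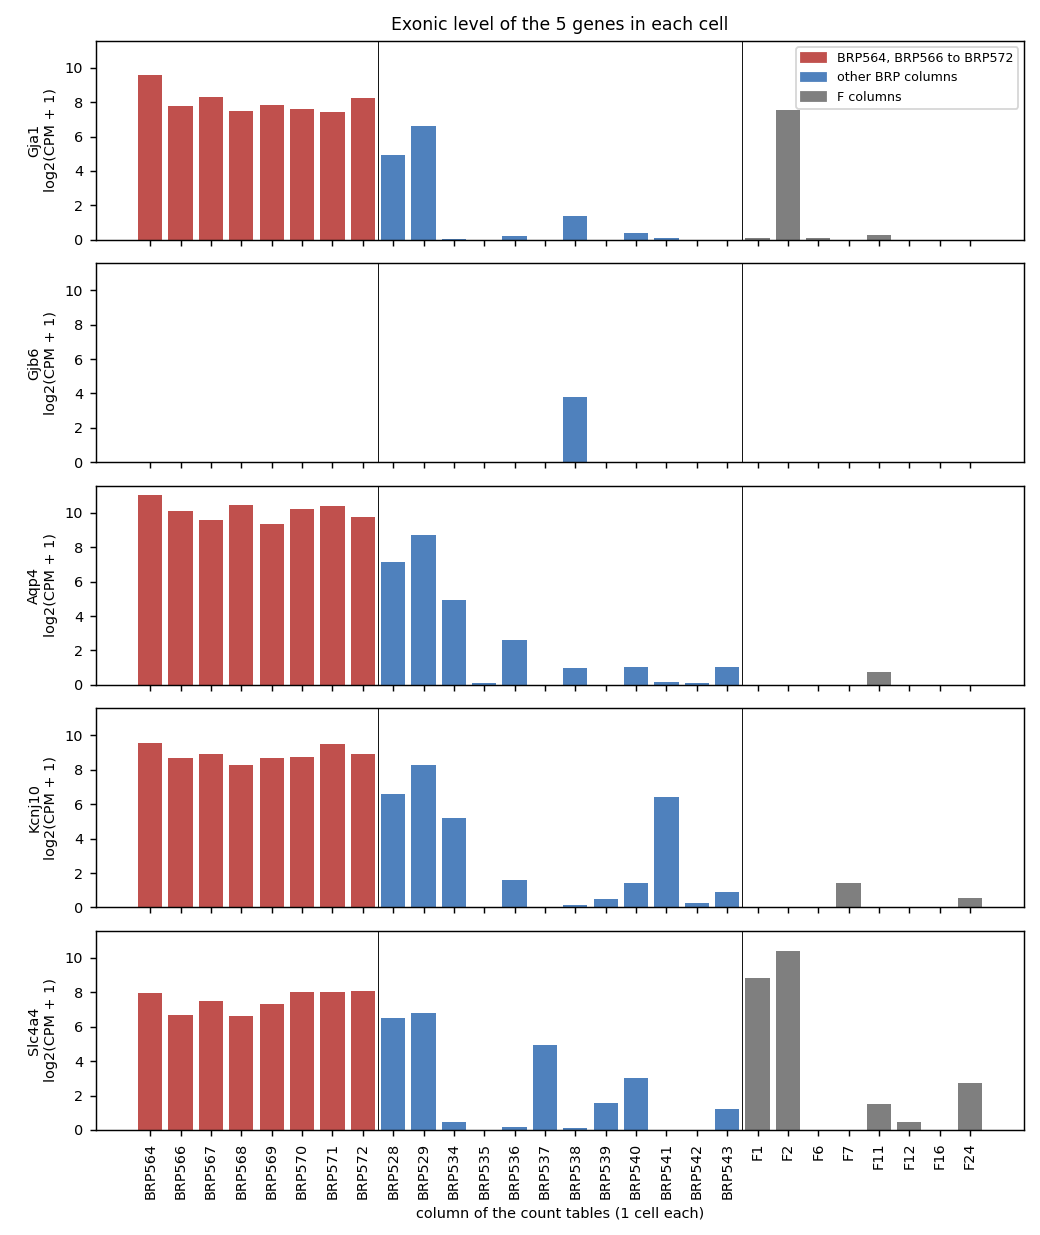
Exonic level of the 5 genes, as log2(CPM + 1), in each of the 28 columns, 1 panel for each gene and 1 bar for each column, coloured by code set. Gja1, Aqp4 and Kcnj10 stand high in the 8 columns of the first set and in BRP528 and BRP529, Gjb6 appears in BRP538 alone, and the highest bars of Slc4a4 are F2 and F1.

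Set side by side, 3 of the 5 genes (Gja1, Aqp4 and Kcnj10) had their lowest value in the first set above their highest in the second, a pattern that 2.24% of all 23453 genes showed. Aqp4 and Kcnj10 also had their lowest value in the first set above every F column, as did 13.6% of all genes, and above all other 20 columns, as did 1.75%. For Gja1 and Slc4a4 the F columns overlapped the first set through F2, and for Slc4a4 through F1 too. At least 4 of the 5 genes were detected in 14 of the 28 columns, namely all 8 of the first set, 6 of the second and 0 of the F columns, and BRP538 was the only column with all 5.

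BRP528 and BRP529 were the columns of the second set closest to the first in these genes. Both held all 12 astrocyte markers, summing to 4387 and 4876 CPM, the highest sums of the second set, together with 10 of 10 neuronal markers, at 9719 and 6186 CPM. BRP528 also held the GABA neuron genes Gad1 at 1136, Slc32a1 at 798 and Gad2 at 780 CPM. BRP529 also held Olig1 at 831, Pdgfra at 257 and Olig2 at 143 CPM, within an oligodendrocyte lineage sum of 1315 CPM. Markers of more than 1 cell type were thus present beside the members in both columns, and their part in the member levels was not tested. Without these columns Gja1 was detected in 17 columns and the second set held it at 1.66 CPM or less.

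For comparison between genes, CPM was divided by the length of the merged annotated exons in kb (5.41 for Kcnj10, 6.23 for Aqp4, 10.3 for Gja1, 10.8 for Slc4a4). On this scale the first set held Aqp4 at a median of 181 (range 105 to 331), Kcnj10 at 82.4 (57.6 to 136), Gja1 at 21.8 (16.8 to 75.5) and Slc4a4 at 19.5 CPM per kb (8.88 to 24.7). Aqp4 was above Kcnj10 and Kcnj10 above both Gja1 and Slc4a4 in all 8 columns, and Gja1 was above Slc4a4 in 6 of 8. The neighbours Gja1 and Slc4a4 thus overlapped within this set. By the longest annotated transcript, in place of all exons merged, Gja1 rose to a median of 57.5 CPM per kb (44.2 to 199) and lay above Slc4a4 in 8 of 8 columns, and Kcnj10 lay above Gja1 in 7 of 8. The water channel's level per kb was 1.40 to 3.94 times that of the potassium channel in the first set (median 1.97), 1.27 times in BRP528 and 1.19 times in BRP529. Among all genes with a length, the percentile of the level per kb summed over the 28 columns was 95.9 for Aqp4, 92.3 for Kcnj10, 83.9 for Slc4a4, 80.9 for Gja1 and 41.9 for Gjb6.

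Across the 28 columns, Aqp4 and Kcnj10 ran most closely together (Spearman's rho of CPM 0.88), followed by Gja1 with Aqp4 (0.78), Gja1 with Slc4a4 (0.72), Gja1 with Kcnj10 (0.70), Aqp4 with Slc4a4 (0.49) and Kcnj10 with Slc4a4 (0.48). The pairs with Gjb6 lay between -0.18 and 0.06. These values are descriptions over 28 cells that share library preparations and differ in depth, and no p is given. Leaving out F1 and F2, Slc4a4 correlated with both Aqp4 and Kcnj10 at 0.77. Inside the first set alone the pairs were weaker, with 0.24 for Aqp4 with Kcnj10 and -0.24 for Gja1 with Aqp4, except Kcnj10 with Slc4a4 at 0.71. The median of the 6 pairs without Gjb6 was 0.71 over all columns, 0.86 over the 20 BRP columns, 0.19 within the first set and 0.55 within the second, where it was 0.20 without BRP528 and BRP529. The likeness of the members over all columns was thus mostly a contrast between columns that held them and columns that did not.

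The genes most like each member were sought among the 12148 genes with a count in at least 10 columns. Those of Aqp4 were Gpx8, Slc1a3 (the glutamate transporter GLAST of astrocytes), Itih5 and S1pr3 (each rho = 0.94) and Ctgf (0.93), where the median over all genes was 0.42. Those of Kcnj10 were Serpinh1, a collagen chaperone, and the intermediate filament gene Vim (both 0.92), then Tmem176b, Col4a5 and Wisp2 (each 0.91), beside a median of 0.40. Those of Gja1 were Zfp36l1 (0.90), Tmcc3 (0.88), Rom1, Inppl1 and the laminin gene Lamb2 (each 0.86), beside a median of 0.28. Slc4a4 ran most closely with Adrb1, a beta adrenergic receptor (0.86), Fez2 (0.82), the glutamate dehydrogenase gene Glud1 and Snapin (both 0.81) and Kif1c (0.80), beside a median of 0.19. The lists of these 4 members shared no gene, but they are short and were cut by rank. Slc1a3, listed for Aqp4, had a rho of 0.9116 with Kcnj10, beside 0.9121 for Wisp2, the last gene listed for Kcnj10. Vim, listed for Kcnj10, had a rho of 0.87 with Aqp4. The lists therefore do not show that Aqp4 and Kcnj10 have distinct neighbours, and the overlap of longer lists was not tested. For Gjb6, with its single column, the highest rho was 0.38, reached by 8 genes.

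The wider pathway was followed in fixed lists of genes, again without tests. Of 17 genes of connexins, pannexins and their scaffold proteins, 15 had an exonic count and 6 had one in at least 10 columns. For comparison with this and the later lists, 12148 of all 23453 genes had a count in at least 10 columns. Of these 6, 3 had a positive Spearman's rho with Aqp4, against 87.6% of all genes. The same 3 had a rho above 0.5, against 39.3% of all genes, so the comparison turned with the threshold. Among them were the scaffold protein gene Tjp1 (0.80) and the connexin gene Gjc1 (0.77). Tjp1 was at 47.2 to 467 CPM in the first set, 0.57 to 139 in the second and 0 to 16.7 in the F columns. Panx1, a pannexin, was instead higher in the second set, at 39.8 to 472 CPM against 0 to 17.6 in the first, and ran from 0 to 210 in the F columns. The neuronal connexin gene Gjd2 was at 0 in all columns of the first set and highest in F1, at 134 CPM, and Gjb2 (connexin Cx26) never passed 0.124 CPM.

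Of 17 genes of water channels and endfoot anchoring, 12 had a count in at least 10 columns, and 6 of these 12 had a rho with Aqp4 above 0.5, as did 39.3% of all genes. The astrocyte membrane protein gene Mlc1 was the closest at 0.92, with 363 to 699.5 CPM in the first set, 0 to 59.3 in the second and 0 in all F columns. Its partner Hepacam followed at 0.81, with 60.2 to 166 CPM in the first set, 0 to 52.7 in the second and 0 to 1.82 in the F columns. Both lay in the first set wholly above the second, as did 2.24% of all genes. The dystroglycan gene Dag1 (rho 0.69) was detected in every BRP column, at 151 to 577 CPM in the first set and 106 to 445 in the second, and Agrn, which encodes agrin, had a rho of -0.12. The other aquaporins were rare: Aqp1 had a count in 1 column and Aqp9 in 3.

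Of 15 genes of potassium buffering, 14 had a count in at least 10 columns and 4 of these, Atp1b2, Slc12a2 and Kcnj16 among them, had a rho with Aqp4 above 0.5, a smaller share than the 39.3% of all genes. Kcnj16, whose product Kir5.1 pairs with Kir4.1, was at 0 to 30.1 CPM in the first set and 0 to 123 in the second and was not detected in the F columns, with a rho of 0.51 to Kcnj10. Slc12a2, the inward chloride cotransporter NKCC1, had a rho of 0.71 to Kcnj10, while the neuronal cotransporter KCC2, Slc12a5, had -0.64 and was at 0 to 24.9 CPM in the first set against 227 to 919 in the second. The sodium pump subunit Atp1b1 was at 468 to 987 CPM in the first set and 4572 to 11201 in the second, and the subunit Atp1b2 at 48.0 to 182 and 0.299 to 75.7 CPM. In the F columns Atp1b1 ran from 385 to 25209 CPM, Atp1b2 from 0 to 118 and Slc12a5 from 0 to 2148.

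Of 20 genes of bicarbonate transport and pH, 15 had a count in at least 10 columns, and 4 of these, Slc4a2, Car2, Car8 and Slc16a1, had a rho with Aqp4 above 0.5, again a smaller share than the 39.3% of all genes. The anion exchanger gene Slc4a2 lay in the first set (2.61 to 23.9 CPM) wholly above the second (0 to 2.35), as did 2.24% of all genes. Car2, a carbonic anhydrase, was closest of the list to Gja1 (rho 0.82) and had a rho of 0.65 to Slc4a4, with 5.58 to 107 CPM in the first set, 0 to 25.7 in the second and 0 to 27.5 in the F columns. The sodium bicarbonate transporters Slc4a7 and Slc4a10 were higher in the second set, at 22.2 to 408 and 7.22 to 288 CPM, than in the first, at 5.71 to 92.2 and 0 to 1.30 CPM, with ranges that overlapped for Slc4a7. Slc4a10 was highest in F1, at 610 CPM, so that the family of Slc4a4 was spread over all 3 code sets.

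**Figure D3:**
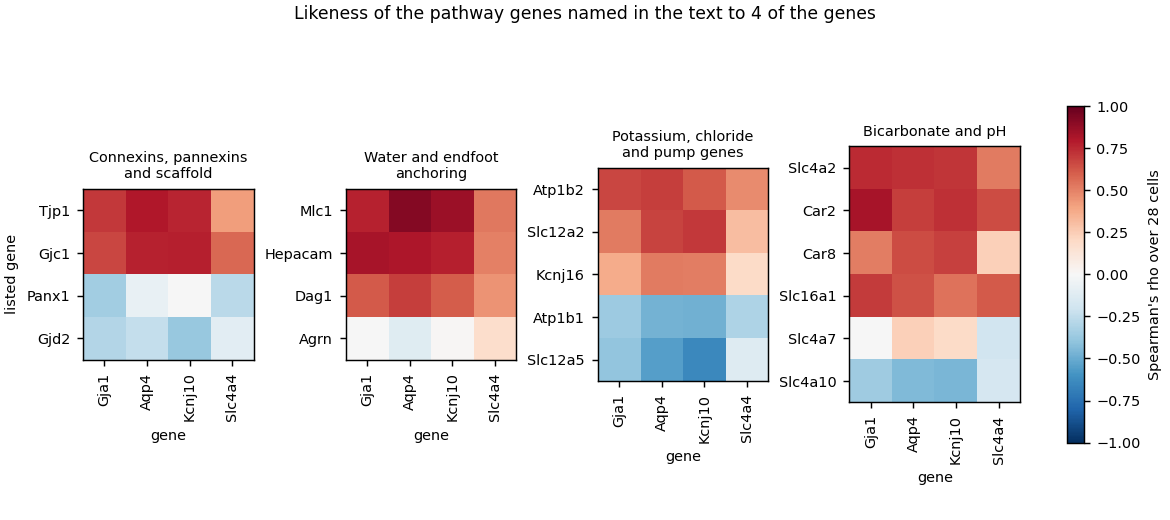
Spearman's rho over the 28 columns between the pathway genes named in the text with a count in at least 10 columns (rows) and Gja1, Aqp4, Kcnj10 and Slc4a4 (columns), as a colour scale. Mlc1, Hepacam and Tjp1 have a rho to Aqp4 of 0.92, 0.81 and 0.80, and Slc12a5 one of -0.55.

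The intronic table allowed a second view of the same genes. Summed over the 28 columns, introns gave 24.95% of all counts of Slc4a4 (15526 intronic counts, 95% exact binomial interval 24.6 to 25.3), but 2.55% for Gja1 (1136 counts, 2.41 to 2.71), 1.64% for Aqp4 (2885 counts, 1.58 to 1.70) and 1.39% for Kcnj10 (1107 counts, 1.31 to 1.47). For Kcnj10, 714 of these counts came from BRP540, without which the share was 0.498% (0.450 to 0.550) and the count per kb of intron 14.3. The median over 18257 genes with at least 10 counts was 17.0%. Intron length differs between the members, at 342 kb for Slc4a4, 27.5 kb for Kcnj10, 15.3 kb for Aqp4 and 14.9 kb for Gja1. Per kb of intron, the summed counts were 189 for Aqp4, 76.1 for Gja1, 45.4 for Slc4a4 and 40.3 for Kcnj10, against 27743, 4224, 4318 and 14514 counts per kb of exon. Slc4a4 thus did not stand out per kb of intron.

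Intronic Slc4a4 was found in all 28 columns, from 2 to 2787 counts with a median of 200.5, including the 6 columns without an exonic count. Over the 28 columns its intronic and exonic counts had a Spearman's rho of 0.53, against 0.61 for Aqp4 and 0.22 for both Gja1 and Kcnj10, with counts that depend on the depth of each column. Among columns with an exonic count, those farthest apart in the ratio, picked after their values were seen, were F1 with 7 intronic and 6838 exonic counts of Slc4a4 and BRP536 with 1031 and 3, while BRP568 held 2787 and 1584. Aqp4 had intronic counts in 12 columns only, and BRP568 held 0 intronic beside 23335 exonic counts of it. Single columns of the second set held introns of a member with few exons: BRP541 held 307 intronic counts of Gja1 beside 1 exonic, and BRP540 held 714 of Kcnj10 beside 29, and 160 of Aqp4 beside 19. The only gene that overlaps a member in the annotation is AC133525.2, antisense to Aqp4. Whether the counting used strand is not given, so reads of these genes may not be told apart.

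**Figure D4:**
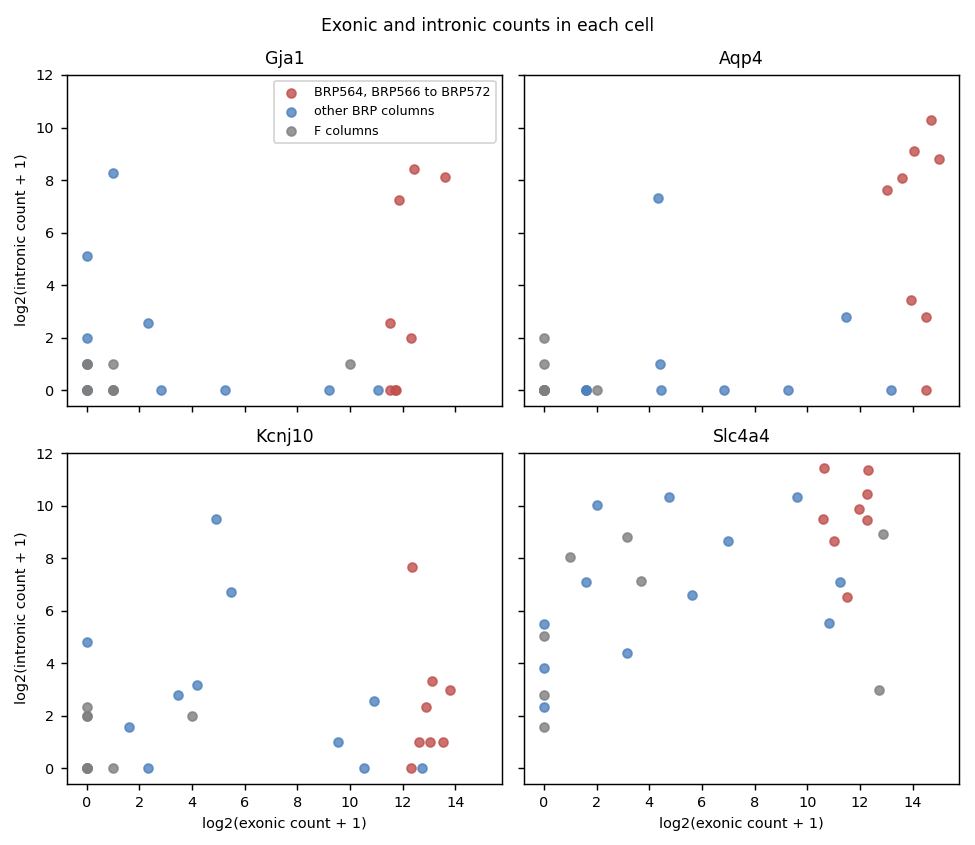
Exonic count (horizontal) against intronic count (vertical) of Gja1, Aqp4, Kcnj10 and Slc4a4, each as log2(count + 1), 1 panel for each gene and 1 point for each of the 28 columns, coloured by code set. Slc4a4 has intronic counts in all 28 columns, and Aqp4 in 12.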

How the data were processed

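RNA-seq counts of 28 single mouse cells were used. Per the labels, 8 cultured astrocytes, 12 cultured neurons and 8 interneurons were collected with pipettes and their RNA was amplified; TruSeq Nano libraries were made from cultured cells and TruSeq Stranded libraries from interneurons, for different Illumina sequencers. The submitters' processing notes name bcl2fastq 2.17, STAR 2.4.0 and mm10. The counter, annotation and strand setting are not given in the sources used here. The authors deposited an exonic and an intronic table of raw, whole-number counts, with genes in rows and cells in columns. All columns were used and 0 were left out. Because 0 of 28 columns matched a label, the planned values by cell type were not computed, and the columns were treated as 1 pooled sample with no test.

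Exonic counts were divided by the column's total to give CPM. Lengths and positions came from GENCODE M21 (GRCm38), matched by symbol for 93.0% of genes, and promoter windows from RefSeq (GRCm38.p6, 4 of 5 members matched). Aqp4 is named only. Spearman's rho was taken over columns. The most similar genes were the 5 of highest rho among genes with a count in at least 10 columns, ties broken by symbol. From each pathway list the 2 genes of highest median level were to be named, of which Tjp1, Panx1, Agrn, Dag1, Atp1b1 and Slc4a7 are given and the others are not reported here. The other list genes were singled out after their values were seen. Intervals (95%) are exact and cover counting error only, since amplified reads are not independent molecules. The members and lists were chosen with earlier results of these data known.

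The alternatives were TMM factors, DESeq2 size factors, exonic and intronic counts added, minimum counts, thinning to the lowest total, other length rules and columns left out. Those that left out BRP528 and BRP529, F12, or F1 and F2, or single columns for shares, that set Gjb6 aside, and the counts of members above other columns under other scalings were added after the data were seen. Python 3.11.15 with numpy 2.4.6, pandas 2.3.3, scipy 1.17.1 and matplotlib 3.10.9 made the calculations and plots, while edgeR 4.0.16 and DESeq2 1.42.0 (R 4.3.3) gave scaling factors alone. The rank calculation was tested on simulated data.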

Additional observations from a re-analysis of the deposited data

How the results depend on the processing

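No paired analysis was possible because the columns carry no replicate numbers and no test was made. Gja1 was detected in 19 columns with at least 1 exonic count and in 12 with at least 10. Gjb6 was detected in 1 column by exons and in 4 when intronic counts were added. The percentile of Gjb6 per kb was 41.9 among all genes and 17.4 among genes with at least 10 counts. The number of members whose first set lay above all other 20 columns was 2 by CPM, 1 by TMM factors, 1 by DESeq2 size factors and 3, Gja1 included, when intronic counts were added. The intronic percent, as the median over columns in place of the sum, was 0.134 for Gja1, 100 for Gjb6, 0.0632 for Aqp4, 0.196 for Kcnj10 and 69.0 for Slc4a4. The causes were not tested. With each column left out in turn, the median rho of the 10 pairs of members (0.49) lay between 0.454 and 0.735, the highest being that without BRP538, where Gjb6 has no exonic count and its pairs drop out. The median rho was 0.80 over the BRP columns alone, 0.77 without F1 and F2, and 0.64 as Pearson's r of log2(CPM + 1). The median of Slc4a4 over the 28 columns, 6.44 CPM, was 14.4 by TMM factors, 20.6 by DESeq2 size factors, 55.5 with intronic counts added and 3.82 without BRP528 and BRP529. With intronic counts added the medians of Gja1 and Kcnj10 went from 0.204 to 0.720 and from 1.69 to 3.20 CPM, and by DESeq2 that of Gja1 was 0.356, or 0.132 without BRP528 and BRP529. The moves of the CPM medians and of the median rho were all smaller than the SD over columns or pairs, a wide limit. The move of the Gjb6 percentile was larger than its SD over columns, 14.8. Thinned to 838343 exonic counts, Gja1 was detected in 13 columns, Gjb6 in 1, Aqp4 in 14, Kcnj10 in 16 and Slc4a4 in 16. Depth limits the F columns most, and counts of 1 to 3 are near the floor of 3 counts.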

Other observations

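The levels of Aqp4 over the 28 columns fell into separate ranges: 8 columns lay from 652 to 2062 CPM, BRP529 and BRP528 at 418 and 142, BRP534 at 28.9 and the other 17 at 5.09 CPM or less. For Slc4a4, 12 columns lay from 90.8 to 1360 CPM, BRP537 at 29.3 and the other 15 at 7.21 CPM or less. BRP537 held 785 exonic and 1292 intronic counts of Slc4a4 and none of the other 4 members in its exons.

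F11 and F12, the pair of columns with the highest Pearson's r, held 448 and 263 intronic counts of Slc4a4 beside 8 and 1 exonic counts, and 2 intronic counts of Gjb6 each. Without F12 the median rho of the 6 pairs of members other than Gjb6 was 0.71, as it was with it.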
